A study of Mus musculus with 5 samples.

Results

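ATP-binding cassette (ABC) proteins form a large family that uses ATP to move drugs, sterols, bile salts, peptides and fatty acids across membranes. The ABC genes described here are those whose array probe sets carry a single gene symbol of the A to G subfamilies. There were 36 such genes among 12393 measured genes, on 65 probe sets. Each gene was represented by its probe set with the highest mean over the 5 arrays, and a RefSeq gene table listed 14 further genes of these subfamilies that were not analysed here. Expression was measured on 3 arrays of intestinal tumours from Apc1638N mice on C57Bl6/J (tumours 16, 18 and 2) and on 2 arrays of normal intestine from C57Bl6/J animals without the mutation (wild types 36 and 62). All animals were males of 8 months, and the epithelium was collected by laser capture microdissection. Apc1638N mice carry a truncating mutation of Apc, a brake on Wnt signalling, and form intestinal tumours. Tumour tissue and mutant genotype go together in this design and cannot be told apart, and the labels name neither the part of the intestine nor whether each array had its own animal.

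In the small intestine, ABC pumps of the brush border return absorbed drugs, toxins, conjugates and plant sterols to the gut lumen. Other members sit in the basolateral membrane and pass conjugates or cholesterol towards the blood. Shorter members of the B and D subfamilies work in mitochondria, peroxisomes and lysosomes, and the E and F subfamilies are not transporters but act on ribosomes. In bulk arrays such as these, fewer cells of a type and less RNA per cell cannot be told apart. The values below are log2 signals, and changes are tumour minus wild type on that scale with the moderated standard error (SE) of limma.

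Promoter windows are shown for some members, and any relation of their sequence or arrangement to the changes was not tested. RefSeq windows of 300 bases (250 before and 50 from the transcription start, GRCm38.p6) were found for 27 of the 36 genes, 33 windows in all. Abcg5 and Abcg8, whose proteins pair into a single sterol pump, start head to head on opposite strands of chromosome 17, with their starts 110 bases apart, and their windows share 209 bases. The Abcg8 window below (chr17:84682871-84683170, plus strand) therefore holds both starts, and capitals mark the stretch from the Abcg5 start to the Abcg8 start.
Abcg8 and Abcg5: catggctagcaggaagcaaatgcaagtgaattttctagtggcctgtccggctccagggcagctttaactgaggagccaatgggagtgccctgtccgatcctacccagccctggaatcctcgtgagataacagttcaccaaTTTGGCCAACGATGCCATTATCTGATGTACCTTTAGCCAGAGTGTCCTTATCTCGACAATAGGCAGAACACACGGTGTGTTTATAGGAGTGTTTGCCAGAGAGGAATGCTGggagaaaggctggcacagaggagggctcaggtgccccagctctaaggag
Within the capitals the GATA motif AGATAA stands on the complementary strand, with matches at -93 and -63 from the Abcg8 start. Here and below, a position is that of the leftmost base of the match in the window as shown. Another copy lies outside the capitals, at -127 on the plus strand. The TATA motif TATAAA lies on the complementary strand at -31. Searched on both strands, AGATAA was present in 11.2% and TATAAA in 13.6% of 32851 windows of the same length. A match is a description of the letters and not evidence of a bound factor.

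Abcb1a and Abcb1b are neighbouring copies on chromosome 5 that both encode P-glycoprotein, the broad drug efflux pump. Their windows (chr5:8566841-8567140 and chr5:8797897-8798196, both plus strand) are shown because their changes had opposite signs. The Abcb1b rise was only 0.24, with all 5 values below 6.04, the lowest 25th percentile of any array. Whether the changes of these 2 genes differ was not tested. The window of Abcc2 (chr19:43782058-43782357, plus strand), an exporter of glutathione and glucuronide conjugates, is shown with them. Capitals mark matches on either strand to 8 short motifs. Besides the GATA and TATA motifs above, these were the CCAAT box, the GC box (GGGCGG), the core shared by TCF and LEF factors (CTTTGA), the nuclear receptor core (AGGTCA), the HNF1 core (GTTAAT) and the E-box (CACGTG). Matches of different motifs did not overlap in these windows.
Abcb1a: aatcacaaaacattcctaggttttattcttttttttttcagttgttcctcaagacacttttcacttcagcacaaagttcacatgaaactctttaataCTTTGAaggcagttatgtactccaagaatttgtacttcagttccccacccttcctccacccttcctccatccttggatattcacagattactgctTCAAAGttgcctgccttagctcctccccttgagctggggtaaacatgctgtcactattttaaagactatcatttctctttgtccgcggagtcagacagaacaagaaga
Abcb1b: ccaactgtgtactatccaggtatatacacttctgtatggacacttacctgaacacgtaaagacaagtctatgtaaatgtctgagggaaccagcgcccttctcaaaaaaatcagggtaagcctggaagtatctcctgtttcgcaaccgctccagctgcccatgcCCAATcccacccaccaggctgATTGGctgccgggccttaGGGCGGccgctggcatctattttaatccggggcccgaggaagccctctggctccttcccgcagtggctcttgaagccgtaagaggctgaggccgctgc
Abcc2: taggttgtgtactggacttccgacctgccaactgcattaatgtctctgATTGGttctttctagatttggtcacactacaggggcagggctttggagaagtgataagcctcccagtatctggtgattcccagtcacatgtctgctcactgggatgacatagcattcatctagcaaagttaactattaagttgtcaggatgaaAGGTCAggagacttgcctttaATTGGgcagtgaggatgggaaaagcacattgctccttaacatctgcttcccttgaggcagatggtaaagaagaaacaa
The Abcb1a window held CTTTGA at -153 and on the complementary strand at -58, a motif present in 16% of all windows, and none of the other 7. The Abcb1b window held CCAAT at -87, its complement at -66 and GGGCGG at -48. The Abcc2 window held AGGTCA at -49 (16.3% of all windows) and the complement of CCAAT at -202 and -28 (CCAAT in 37.4% of all windows). GGGCGG was found in 35.7% of all windows.

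Over the whole family, 7 of 36 genes were lower in tumours, 2 were higher and 27 did not pass (limma, Benjamini-Hochberg adjusted p of 0.05 over 12393 genes). The 7 lower genes are 19.4% of the family, beside 10.5% of all measured genes, and the 2 higher genes are 5.56%, beside 11.3%. In either direction 25% of the family passed, beside 21.7% of all genes. The 2 groups were fully separated for 20 members (55.6%), beside 50.7% of all genes. The family median change was -0.06 and the median over all genes 0.00. Of the 36 changes, 26 were smaller than 0.25 in either direction, so the large changes belonged to few members. The plot of changes by role shows these few against the rest.

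**Figure D1:**
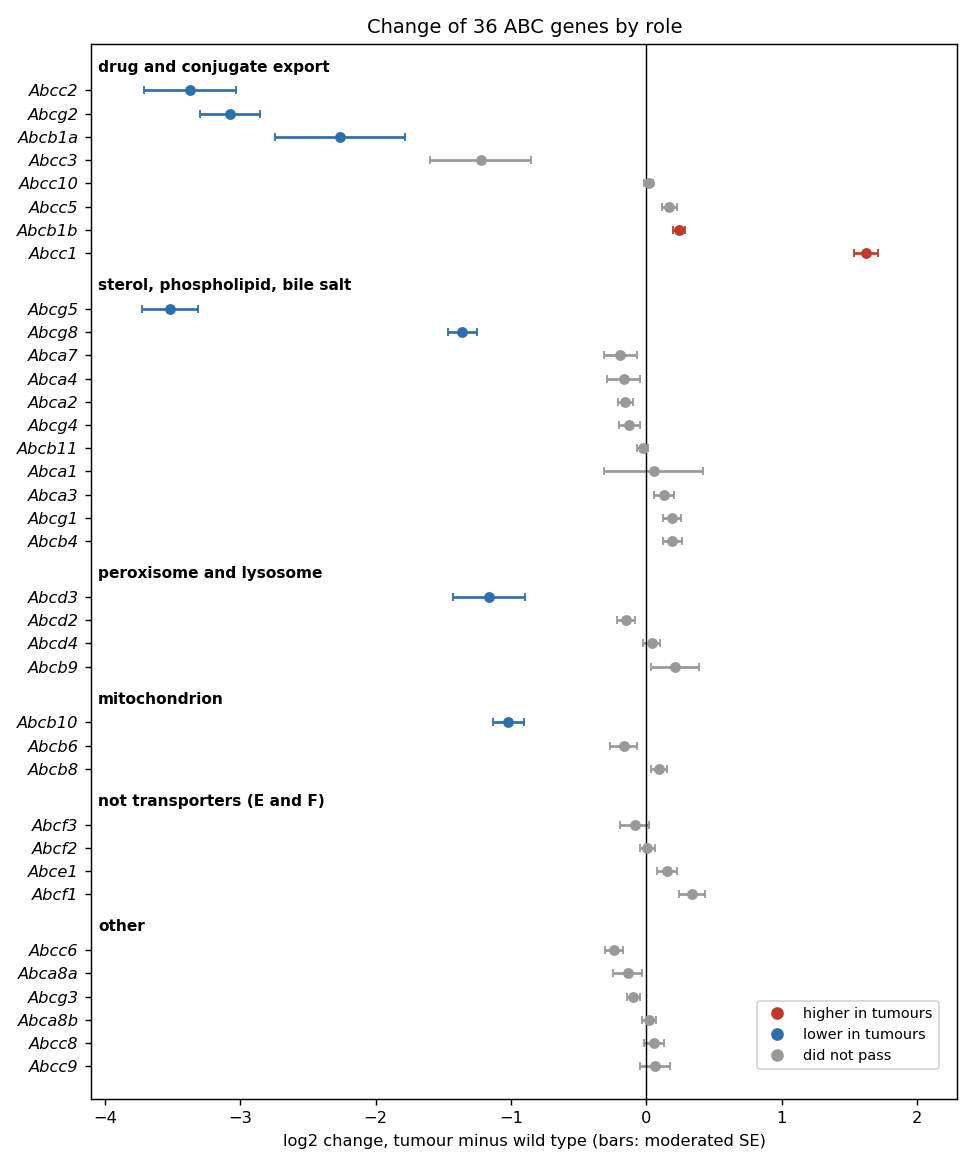
Log2 change (tumour minus wild type, x axis) of the 36 ABC genes, grouped by role down the page; points are limma estimates, bars are moderated SE, and colour gives the call. The 4 changes below -2 are Abcg5, Abcc2, Abcg2 and Abcb1a, Abcc1 lies alone at 1.62, and most other members lie within 0.25 of 0.

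Of 8 genes for export of drugs and conjugates, 3 were lower in tumours, 2 were higher and 3 did not pass. Counts by role, here and below, stand beside 10.5% lower and 11.3% higher among all genes. Abcc2 had log2 signals of 6.45, 7.21 and 6.87 in tumours 16, 18 and 2, against 9.83 and 10.60 in wild types 36 and 62. Every tumour lay more than 2 log2 units below every wild type, and the change was -3.37 (SE 0.34, adjusted p = 0.00965 in limma), which leaves 9.65% of the wild-type signal. Abcc2 was measured by 1 probe set, of a kind that can detect related transcripts. Abcg2, which encodes the breast cancer resistance protein, a brush-border exporter of drugs and urate, had 6.42, 6.73 and 7.03 in tumours 16, 18 and 2, against 9.62 and 9.99 in wild types. Its groups were again far apart, with a change of -3.08 (SE 0.22, adjusted p = 0.00582 in limma) and 11.9% of the wild-type signal left. Without wild type 62 the adjusted p-values were 0.0697 for Abcc2 and 0.0625 for Abcg2, in a fit that called 0 of 12393 genes, while 3880 genes had an unadjusted p under 0.05. Abcc2 also lost its call without wild type 36 (0.0528). With tied probe sets removed too, an alternative added once the data had been seen, both genes passed in each fit that left out a tumour. Abcb1a did not pass in any of these fits, and Abcb1b and Abcd3 passed only in the one without tumour 2.

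The 2 P-glycoprotein genes had changes of opposite sign. Abcb1a, the main intestinal copy in mice, had 7.82, 7.84 and 7.66 in tumours 16, 18 and 2, against 9.28 and 10.80 in wild types 36 and 62. The tumours were close to each other and the wild types more than 1 log2 unit apart, so the change of -2.26 has a wide error (SE 0.48, adjusted p = 0.0418 in limma). Its other probe set had 6.74, 7.05 and 6.77 in tumours, against 7.97 and 9.16 in wild types, a difference of -1.71 that did not pass (adjusted p = 0.0551 over probe sets). The call of Abcb1a was lost without tumour 16 (adjusted p = 0.142), tumour 18 (0.132), tumour 2 (0.111) or wild type 62 (0.0526), where the change was -1.50. Abcb1b had 5.35, 5.37 and 5.30 in tumours, against 5.13 and 5.07 in wild types, a rise of 0.24 (SE 0.04, adjusted p = 0.0270 in limma). All 5 Abcb1b values lay below 6.04, the lowest 25th percentile of any array, so no fold is given. Its call was lost without tumour 16 (0.102), tumour 18 (0.0864), wild type 36 (0.0728) or wild type 62 (0.102). Abcb4, the third gene of this neighbourhood, encodes the phosphatidylcholine flippase of bile and differed by 0.19 (adjusted p = 0.134). Whether the changes of these neighbours differ from each other was not tested.

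Abcc1 was the family member with the largest rise. It encodes a basolateral exporter of glutathione conjugates and leukotriene C4, and had 8.09, 8.22 and 7.98 in tumours 16, 18 and 2, against 6.54 and 6.41 in wild types. The groups averaged 8.10 ± 0.12 (SD, n = 3) in tumours and 6.47 ± 0.09 (SD, n = 2) in wild types and lay far apart, with a change of 1.62 (SE 0.09, adjusted p = 0.00497 in limma), or 3.08-fold. A second Abcc1 probe set, of the kind that can detect related transcripts, differed by only 0.09 (adjusted p = 0.356 over probe sets), and the mean of both gave 0.85. The call was kept in every fit that left out 1 array except the one without wild type 62 (adjusted p = 0.0529). Abcc3, another basolateral exporter of glucuronides and bile salts, had 7.87, 7.21 and 8.28 in tumours 16, 18 and 2, against 9.25 and 8.77 in wild types. These groups did not overlap, but the tumours were more than 1 log2 unit apart and the change of -1.22 did not pass (SE 0.37, adjusted p = 0.0917 in limma). Abcc5, an exporter of nucleotide analogues, differed by 0.17 (adjusted p = 0.108) and Abcc10 by 0.02 (adjusted p = 0.709), and neither passed.

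**Figure D2:**
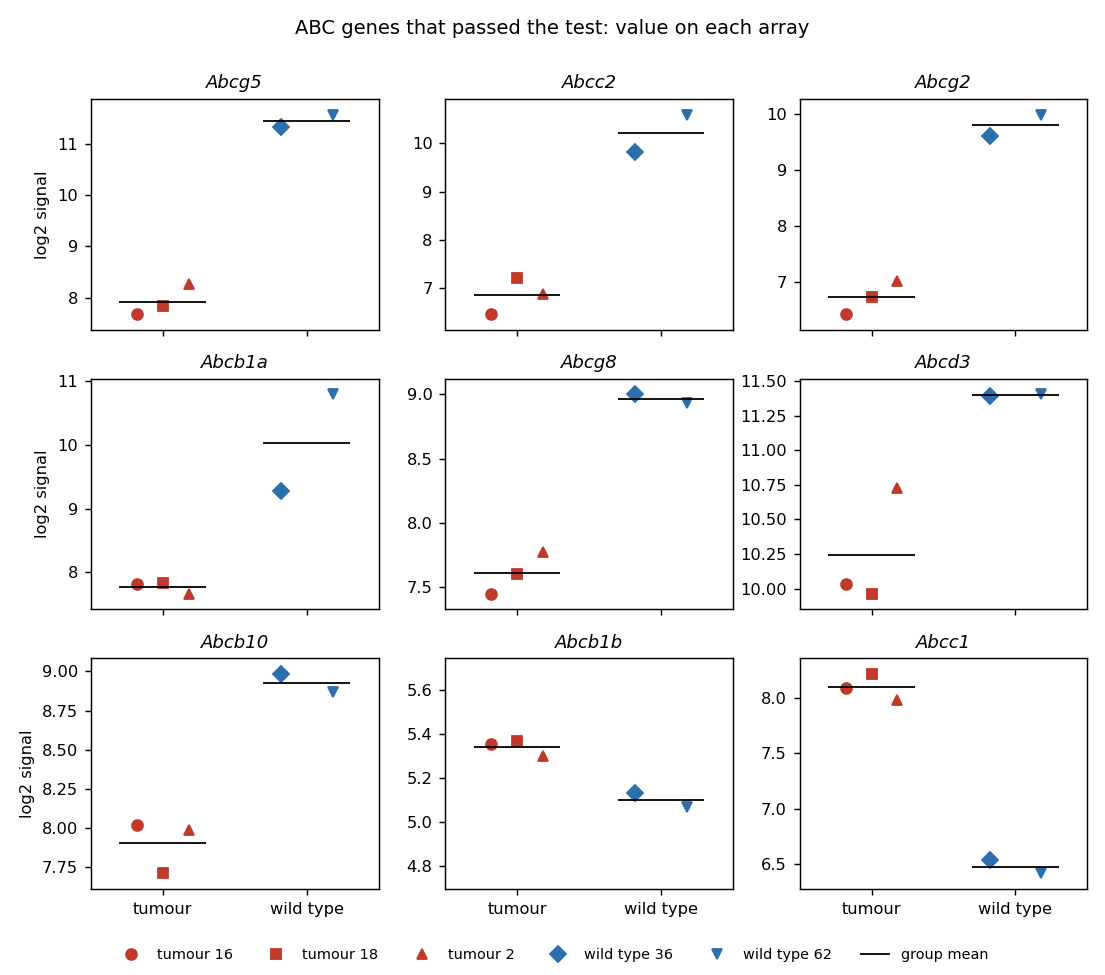
Log2 signal (y axis, scaled separately for each gene) of the 9 ABC genes that passed the test, on each of the 3 tumour arrays and 2 wild-type arrays; lines are group means. Tumours lie below wild types for Abcg5, Abcc2, Abcg2, Abcb1a, Abcg8, Abcd3 and Abcb10 and above them for Abcb1b and Abcc1, and wild types 36 and 62 are furthest apart for Abcb1a.

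Among 11 genes for sterols, phospholipids, retinoids and bile salts, 2 were lower in tumours, 0 were higher and 9 did not pass. The 2 lower genes were the head-to-head pair shown above. Abcg5 had 7.68, 7.83 and 8.26 in tumours 16, 18 and 2, against 11.32 and 11.57 in wild types 36 and 62. This was the largest change of the family, at -3.52 (SE 0.21, adjusted p = 0.00498 in limma), or 8.71% of the wild-type signal. Abcg8 had 7.45, 7.60 and 7.78 in tumours, against 9.0 and 8.93 in wild types, a change of -1.36 (SE 0.11, adjusted p = 0.00671 in limma) or 39.0% of the wild-type signal. In both genes tumour 16 was lowest and tumour 2 highest among the tumours. Abcg2 had the same order, and tumour 2 was the highest tumour in 55.5% of all 1300 lower genes. Different probe sets need not respond alike, and the difference in size between the 2 changes was not tested. Without wild type 62 the adjusted p was 0.0571 for Abcg5 and 0.0673 for Abcg8, and Abcg8 also lost its call without wild type 36 (0.0594).

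The remaining sterol and lipid genes differed by -0.19 to 0.19. Abca1, the basolateral exporter that loads cholesterol onto apolipoprotein A-I, had 7.47, 7.73 and 7.48 in tumours 16, 18 and 2, against 6.94 and 8.06 in wild types 36 and 62. All 3 tumours lay between the wild types, so the change of 0.06 (SE 0.36, adjusted p = 0.931) says little about its direction. Abcg1, a sterol exporter studied mainly in macrophages, differed by 0.19 (SE 0.07, adjusted p = 0.130 in limma), with values of 7.64, 7.75 and 7.61 in tumours, against 7.54 and 7.41 in wild types that did not overlap them. Abca2 and Abcg4, best known from brain, differed by -0.15 and -0.13, Abca3, which packs lung surfactant lipids, by 0.13, the retinal retinoid flippase Abca4 by -0.17 and the phospholipid exporter Abca7 by -0.19. The bile salt export pump Abcb11, a liver gene, had values from 6.0 to 6.08 over all 5 arrays and a change of -0.03.

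Members were also grouped by their place in the enterocyte membrane, a grouping made with these values known. Of 6 measured genes for brush-border pumps, 5 were lower (Abcb1a, Abcc2, Abcg2, Abcg5 and Abcg8) and 1 was higher (Abcb1b, the dim second gene of P-glycoprotein), beside 10.5% lower and 11.3% higher among all genes. Their changes lay between -3.52 and 0.24, with a median of -2.67. Of 3 genes for basolateral exporters, Abcc1 was higher and Abca1 and Abcc3 did not pass. Other ABC genes were not placed in this grouping, among them Abcc5 (0.17), Abcc6 (-0.24) and Cftr (0.75), which did not pass. The counts for each side depend on which genes were placed. Whether the changes go with the side of the membrane was not tested, and a grouping made with the values known cannot test it. The median change over all measured genes was 0.00.

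Other markers moved between the same arrays. Of 6 measured absorptive enterocyte markers, 6 were lower in tumours, and their summed linear signal was 1461 to 2981 in tumours, against 22735 to 26670 in wild types. Of 7 epithelial markers 2 were higher and 1 was lower (26303 to 33854 in tumours, against 23575 to 25784 in wild types). Of 6 leukocyte markers 4 were lower and 0 higher (921 to 1707 in tumours, against 3289 to 3774 in wild types), and of 6 fibroblast markers 1 was higher and 0 lower (1891 to 9611 in tumours, against 860 to 1157 in wild types). The 2 leukocyte markers that did not pass, Lyz2 and Cd68, named after their values were seen, changed by 1.67 (adjusted p = 0.0502 in limma) and 0.19. Smooth muscle markers summed to 1503 to 1731 in tumours, against 801 to 1008 in wild types, with 1 of 5 higher, and 0 of 5 endothelial and 0 of 3 nerve and glia markers passed. These marker counts stand beside 10.5% lower and 11.3% higher among all genes. No marker was listed at 0. The 3′ minus 5′ log2 signal of beta-actin, a sign of RNA quality, was 4.0 to 4.25 in tumours, against 3.32 and 2.51 in wild types. The part of these differences in the changes of ABC genes was not tested.

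Peroxisomes and lysosomes hold 4 measured members, of which 1 was lower and 3 did not pass. Abcd3, which carries branched-chain fatty acids and bile acid precursors into peroxisomes, had 10.03, 9.96 and 10.72 in tumours 16, 18 and 2, against 11.39 and 11.40 in wild types. The wild types were nearly identical and tumour 2 stood apart from the other tumours towards them. The change of -1.16 (SE 0.27, adjusted p = 0.0496 in limma) was close to the threshold and lost its call without tumour 16 (0.158), tumour 18 (0.137), wild type 36 (0.196) or wild type 62 (0.205). Abcd2, a carrier of very long-chain fatty acids, had all 5 values below the lowest 25th percentile and differed by -0.15. Abcd4, which takes part in the release of cobalamin from lysosomes, differed by 0.04, and the lysosomal peptide transporter Abcb9 by 0.21, in which tumour 18 (7.08) stood above tumours 16 and 2 (6.56 and 6.65) and the wild types (6.55 each).

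Of 3 mitochondrial members, 1 was lower and 2 did not pass. Abcb10, an inner-membrane protein needed for haem synthesis in red cell precursors, had 8.02, 7.71 and 7.99 in tumours 16, 18 and 2, against 8.98 and 8.87 in wild types. Its change was -1.02 (SE 0.12, adjusted p = 0.0119 in limma), which leaves 49.4% of the wild-type signal. Of its 2 further probe sets, 1 had a change of -0.35 (adjusted p = 0.0605 over probe sets) and 1 of 0.01 (adjusted p = 0.766), and the mean of all gave -0.45. The call was lost without tumour 16 (0.0524), wild type 36 (0.0855) or wild type 62 (0.0832). Abcb6, linked to porphyrin transport, differed by -0.17 (adjusted p = 0.309), and Abcb8, of the inner membrane, by 0.10 (adjusted p = 0.338).

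None of the 4 non-transporting members passed. Abcf1, a partner of initiation factor eIF2, had 9.30, 9.44 and 9.37 in tumours 16, 18 and 2, against 8.91 and 9.16 in wild types, a change of 0.34 (SE 0.10, adjusted p = 0.0819 in limma). It passed with the mean of its probe sets (change 0.16, adjusted p = 0.0284) and with quantile normalization (change 0.45, adjusted p = 0.0115). Abce1, which splits ribosomes after termination, differed by 0.15 in its brightest probe set and by 0.67 (adjusted p = 0.0776 over probe sets) in another. In that probe set the tumours had 7.17, 7.47 and 7.09, against 6.38 and 6.77 in wild types. Abcf2 and Abcf3 differed by 0.01 and -0.09, with signs that turned under other settings. Abcc6, whose loss leads to calcification of soft tissue, differed by -0.24 (adjusted p = 0.0695) with groups that did not overlap. The channel subunits Abcc8 and Abcc9 were below the lowest 25th percentile on all 5 arrays. The other members, Abca8a, Abca8b and Abcg3, differed by -0.14, 0.02 and -0.09.

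Probe sets of the same gene differed in size for several members, as the plot of probe sets shows. Among the 9 genes that passed, Abcb1a, Abcb10 and Abcc1 had more than 1 probe set. One unused probe set passed over all probe sets, that of Abcb9 with a change of 0.21 (adjusted p = 0.0477). Of the probe sets used for the 9 genes that passed, only that of Abcd3 did not pass over all probe sets (adjusted p = 0.0563).

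The tumours were not equally far from wild type. Among the 7 lower ABC genes, tumour 2 had the highest tumour value in 4, tumour 18 in 2 and tumour 16 in 1. Tumour 2 was also highest in 55.5% of the 1300 lower genes of the whole array, so the order among ABC genes is near that of all lower genes.

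Genes that work with or regulate ABC proteins were taken from 7 lists with 71 members, of which 59 were measured. ABC proteins under other symbols gave 2 lower and 0 higher of 3. Tap1 and Tap2, the pair that feeds peptides to class I molecules, changed by -1.43 (SE 0.12, adjusted p = 0.00719 in limma) and -1.10 (SE 0.10, adjusted p = 0.00812). Cftr, the chloride channel of crypt epithelium, averaged 9.08 ± 0.15 (SD, n = 3) in tumours and 8.33 ± 0.49 (SD, n = 2) in wild types, and its change of 0.75 did not pass (adjusted p = 0.104 in limma). Of 11 nuclear receptors and factors known to regulate ABC genes, 5 were lower and 1 was higher. The xenobiotic receptors Nr1i3 (CAR) and Nr1i2 (PXR) changed by -1.33 (SE 0.09, adjusted p = 0.00525) and -0.70 (SE 0.11, adjusted p = 0.0204). Nfe2l2, the regulator of antioxidant genes, changed by -1.24 and Srebf1, a regulator of lipid synthesis, by 0.77. Hnf4a, a hepatocyte and enterocyte factor named after its values were seen, averaged 11.77 in both groups (change 0.00).

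Of 9 sterol and lipoprotein partners, 3 were lower and 2 higher. Mttp, which loads lipid onto apolipoprotein B, changed by -2.83 (SE 0.35, adjusted p = 0.0135 in limma) and Osbp, an oxysterol-binding protein, by -0.57, while the lysosomal cholesterol carriers Npc1 and Npc2 rose by 0.72 and 0.63. Peroxisomal partners of the D subfamily had 7 of 11 lower and 0 higher. The largest changes there were those of the acyl-CoA synthetase Slc27a2 (-3.68, SE 0.36), of the beta-oxidation enzymes Ehhadh (-3.24) and Acaa1b (-3.21), and of Scp2 (-2.24). Iron-sulphur and haem partners of mitochondrial members had 4 of 11 lower and 0 higher, among them the ferredoxin Fdx1 (-1.26, SE 0.17), the assembly proteins Isca1 (-1.20, SE 0.08) and Iscu (-0.44) and the iron carrier Slc25a37 (-0.67). In the translation list, 1 of 8 was higher, the eIF2 subunit Eif2s2 (0.81, SE 0.13), and 0 were lower. The glutathione list, which holds transferases besides synthesis genes, had 2 of 6 lower, the transferase Gstp1 (-0.69) and the synthesis gene Gclm (-0.44), and 0 higher. These counts stand beside 10.5% lower and 11.3% higher among all genes.

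**Figure D3:**
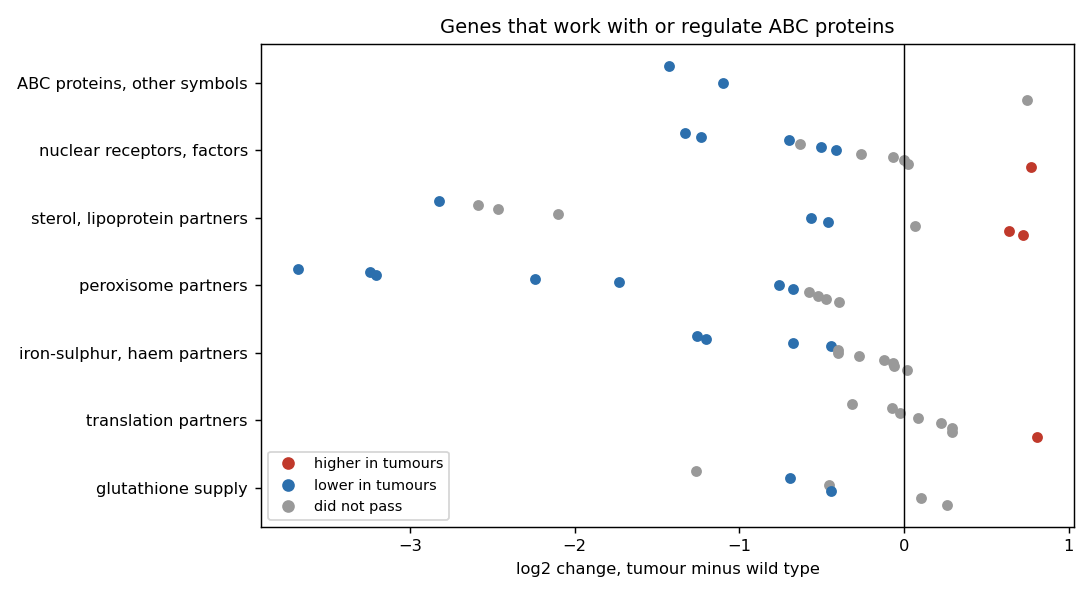
Log2 change (tumour minus wild type, x axis) of 59 measured genes in 7 lists of genes that work with or regulate ABC proteins; each point is a gene and colour gives the call. Peroxisome partners reach furthest below 0, to -3.68 for Slc27a2, and all 11 lie below 0.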

How the data were processed

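The authors deposited 1 table of log2 signals for 22690 probe sets on the 5 arrays, with values from 3.38 to 14.3 and array medians from 6.81 to 6.87. Their range and medians gave the log2 scale. Per the submitters' processing notes the authors used affy, and which summary and normalization they applied is not given in the sources used here. Values were used as deposited. After 64 control probe sets were set aside, 20380 of 22626 probe sets had 1 symbol in GEO's platform annotation, 691 had several and 1555 had none. A check against RefSeq (GRCm38.p6) by Entrez identifier updated 0 symbols. The table names no genome build, so coordinates are those of the RefSeq promoter windows only.

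Two-sided tests were made in limma 3.58.1 (R 4.3.3) by lmFit and eBayes with group as sole term, with 3 residual and 1.23 prior degrees of freedom and Benjamini-Hochberg adjustment over all genes, or over all probe sets where stated. All adjusted p-values are limma's. These steps were first tested on simulated data. With 3 arrays against 2, an exact two-sided permutation test of 1 gene cannot go below 0.1. P-values reflect only the spread among these samples, which may be technical, and precision is limited by the number of arrays. Exact ties occurred over all 3 tumours in 1042 probe sets and over both wild types in 1716, and 14 of the 36 ABC probe sets held tied values. Such ties lower the estimated spread.

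The members, roles, lists, motifs and tests were chosen with earlier results of these data known. Every measured ABC gene could be named. In each other list at most 4 members past the threshold with the largest change are named, and all 3 ABC proteins under other symbols. Alternatives were quantile normalization, median centring, a filter at the 40th percentile of mean signal, trend and robust settings, array weights (statmod 1.5.0), the mean of all probe sets, a 2-fold minimum, removal of probe sets that may share targets (suffixes _s_at, _x_at and _a_at), leaving out tied probe sets, and leaving out each array. A probe set counted as tied where all 3 tumours or both wild types had the same value.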

Additional observations from a re-analysis of the deposited data

How the results depend on the processing

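The 7 lower ABC genes stayed 7 in number under all settings with 5 arrays except the one without probe sets of shared targets, where 5 of 31 measured were lower. Abcc2 was not measured there and Abcd3 had an adjusted p of 0.0568. The count of 2 higher ABC genes was 4 with quantile normalization (Abcc5 and Abcf1 added), 3 when all probe sets of a gene were averaged (Abcf1 added), 1 with the dimmest 40 percent of probe sets removed (Abcb1b not measured) and 1 with a 2-fold minimum. Leaving out 1 array gave 0 to 2 higher and 0 to 6 lower ABC genes, or 1 to 2 and 5 to 7 with tied probe sets removed too, an alternative chosen once the data had been seen. Where 1 wild type was left, its spread was assumed to be that of the tumours. The counts of 0 are those without wild type 62, where 1 wild type was left. Over all genes, 1395 were higher and 1300 lower. These counts were 428 and 557 with a 2-fold minimum, and 870 and 1033 with shared targets left out. Leaving out 1 array gave 0 to 1295 higher and 0 to 1085 lower, or 567 to 1664 and 616 to 1405 with tied probe sets removed too (781 higher and 726 lower without tumour 16, and 617 higher without wild type 36).

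Of 622 recomputed values of single ABC genes, 558 kept their direction and their side of the threshold, 35 lost their call, 4 gained one and 25 turned their direction. None of the 25 belonged to a gene that had passed. Abca1 turned without tumour 18 (-0.029) or wild type 36 (-0.50) and ranged to 0.62 over the fits without 1 array. Abca8b turned with median centring (-0.012), array weights (-0.0022) or without tumour 2 (-0.014), with up to 0.046 without another array. Abcb11 was 0.00056 without tumour 16 and as low as -0.038 without another array. Abcc10 turned with quantile normalization (-0.0080) and median centring (-0.014). Without wild type 62, Abcc8 was -0.049 (up to 0.16 without another array) and Abcd4 -0.052 (up to 0.13). Abcc9 was -0.034 without tumour 18 (up to 0.13 without another array). Abcf2 turned with quantile normalization (-0.020), median centring (-0.026) or without tumour 18 (-0.025) or wild type 62 (-0.010), with up to 0.045 without another array. Abcf3 was 0.010 when all its probe sets were averaged and 0.00066 without wild type 62, with down to -0.17 without another array. Values without 1 array were equal with tied probe sets also left out wherever the gene was still measured. The cause of these shifts was not tested. No paired analysis was possible because the groups share no replicate numbers. Presence calls were not used here, so signal over background limits the dim members Abcb1b, Abcc8, Abcc9 and Abcd2. How much of the low signals of Abcc2 and Abcg2 in tumours, and of Abcc1 in wild types, is background was not tested.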
